A study of Mus musculus with 32 samples.

Results

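Reads of pituitary hormone genes were found in very unequal amounts across 32 libraries made from dissected mouse brain arteries, and in more than 1 combination of genes. Some libraries held almost none besides those of Pomc and Chga, which neurons also express: Notch3+/+ replicate 3 held 0 Prl, 0 Gh, 3 Cga and 1 Tshb reads. The 8 genes described here are Prl, Gh, Pomc, Cga, Lhb, Tshb, Pou1f1 and Chga, taken from the 55357 rows of the count table by Ensembl identifier, and all 8 identifiers were found. They were chosen on their levels in these same libraries, in which earlier results had shown pituitary RNA. Their levels and the differences between groups are therefore a description. The calls that fits across all genes gave for these 8 are printed for completeness, and nothing is read from them.

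The anterior lobe of the pituitary holds several kinds of hormone cell. Lactotrophs make prolactin (Prl), somatotrophs growth hormone (Gh) and thyrotrophs the beta subunit of thyroid-stimulating hormone (Tshb), and all of these lineages of the main lobe depend on the transcription factor Pou1f1. Corticotrophs, the melanotrophs of the intermediate lobe and neurons of the arcuate nucleus of the hypothalamus make proopiomelanocortin (Pomc). Cga encodes the alpha subunit that thyroid-stimulating hormone shares with the gonadotropins, whose beta subunits are Lhb and Fshb. Thyrotrophs of the pars tuberalis, the sheath around the pituitary stalk, express Tshb and Cga without Pou1f1. Chga encodes chromogranin A, a protein of the secretory granules of endocrine cells and neurons. The gland and its stalk lie under the hypothalamus, ringed by the arteries of the brain base.

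The study compared brain arteries of TgNotch3R169C mice, a model of the small vessel disease CADASIL, with those of Notch3-null mice. There were 4 groups of 8 libraries, each from arteries of 1 mouse: Notch3-/- and Notch3+/+ mice aged 3 months, and TgNotch3R169C and WT mice aged 12 months. The transgene is a rat Notch3 gene with the mutation in its name, carried on a P1 artificial chromosome in addition to the mouse gene, and the Notch3-/- mice are constitutive nulls. None of the groups received a treatment, and age, line and genotype differ between the 2 mutant groups. The libraries held between 20289487 and 54481934 counted reads, which is the depth behind each value below. Levels are in CPM, the reads of a gene scaled to a fixed library size and not to gene length. The deleted gene, Notch3, had a level of 16.3 ± 1.82 CPM in the Notch3-/- libraries and 83.5 ± 11.7 CPM in Notch3+/+ arteries (mean ± SD, n = 8 mice each). It was at 181 ± 35.0 CPM in TgNotch3R169C and 73.0 ± 8.16 CPM in WT arteries, as the labels say. Markers of arterial smooth muscle and endothelium were present in all 32 libraries: the lowest level of Acta2 was 282 CPM and that of Pecam1 206 CPM. No label gives a mouse's sex. Xist, transcribed from the inactive X chromosome of female cells, lay between 1414 and 1824 CPM in 16 libraries, replicates 5 to 8 of each group, and between 0.580 and 2.40 CPM in the other 16. The Y-linked gene Ddx3y lay between 115 and 161 CPM in those last 16 libraries and at or under 0.323 CPM in the others.

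The stretches before the starts of 4 of the genes are shown because they belong to the 2 combinations described below, Prl and Pou1f1 to the first, Tshb and Cga to the second. They are the 250 bases upstream of the RefSeq start sites. Capitals mark matches to TATNCAT, a form of the Pou1f1 motif, or to AGATAA, a sequence bound by GATA factors. Both strands were searched.
Prl promoter, GRCm38.p6 chr13:27057320-27057569, plus strand: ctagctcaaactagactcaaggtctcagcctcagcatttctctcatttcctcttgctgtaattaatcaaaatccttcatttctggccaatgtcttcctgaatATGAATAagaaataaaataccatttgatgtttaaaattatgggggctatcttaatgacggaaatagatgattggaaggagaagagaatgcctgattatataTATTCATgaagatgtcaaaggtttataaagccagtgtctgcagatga
Pou1f1 promoter, GRCm38.p6 chr16:65520262-65520511, plus strand: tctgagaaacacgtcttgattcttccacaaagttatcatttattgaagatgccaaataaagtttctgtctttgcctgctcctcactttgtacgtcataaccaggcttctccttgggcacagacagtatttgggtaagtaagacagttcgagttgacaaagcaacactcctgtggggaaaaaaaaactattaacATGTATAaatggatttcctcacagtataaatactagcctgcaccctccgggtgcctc
Tshb promoter, GRCm38.p6 chr3:102782715-102782964, minus strand: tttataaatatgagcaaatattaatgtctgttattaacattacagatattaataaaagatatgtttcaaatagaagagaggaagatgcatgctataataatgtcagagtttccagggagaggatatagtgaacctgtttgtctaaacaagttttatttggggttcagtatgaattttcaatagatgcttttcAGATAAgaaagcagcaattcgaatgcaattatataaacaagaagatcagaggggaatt
Cga promoter, GRCm38.p6 chr4:34893529-34893778, plus strand: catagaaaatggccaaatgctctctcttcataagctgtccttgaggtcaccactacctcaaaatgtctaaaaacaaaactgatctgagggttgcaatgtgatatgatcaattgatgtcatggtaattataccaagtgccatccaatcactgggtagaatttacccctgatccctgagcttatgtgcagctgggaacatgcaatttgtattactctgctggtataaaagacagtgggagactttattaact
The Prl stretch held 2 matches to the Pou1f1 motif, one on each strand, between 148 and 142 and between 47 and 41 bases before the start. The Pou1f1 stretch held 1, between 57 and 51 bases before the start. The Tshb stretch held none of these and 1 GATA match, between 58 and 53 bases before the start, and the Cga stretch held neither. TATNCAT was present in 7.92% and AGATAA in 9.99% of 32851 RefSeq promoter stretches of this length. The stretches of Pomc, Lhb and Chga, and a second one of Pou1f1, held neither motif, and Gh was not matched. A match here is a string of letters and was not tested as a site.

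Prl, Gh, Pomc, Cga and Tshb together took up 0.886% of all counted reads in Notch3+/+ replicate 5 (95% Wilson interval 0.882% to 0.889%). WT replicates 5 and 6 followed with 0.0760% and 0.0570%, then Notch3-/- replicate 4 with 0.0146%. The median share was 5.99e-04% in Notch3+/+, 8.54e-04% in Notch3-/-, 0.00173% in TgNotch3R169C and 0.00366% in WT arteries. Pomc, which arcuate neurons also make, was most of the sum in some libraries. It gave 86 of 90 reads in Notch3+/+ replicate 3 and 4727 of 5399 in Notch3-/- replicate 4, but 42004 of 263027 in Notch3+/+ replicate 5. The ranges of all 4 groups overlapped, and within Notch3+/+ arteries alone the share ran from 1.85e-04% to 0.886%. These intervals cover counting error only. In bulk tissue, more cells of a type and more RNA per cell cannot be told apart.

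**Figure D1:**
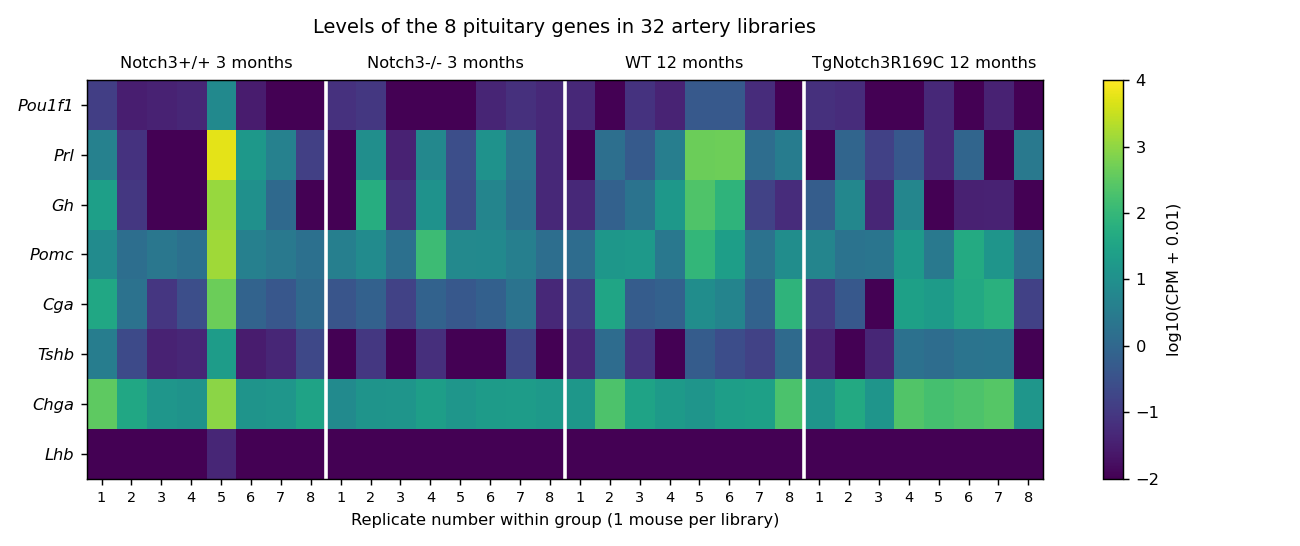
Level of each of the 8 genes (rows) in each of the 32 libraries (columns, by group and replicate number), as log10(CPM + 0.01) on a colour scale. Notch3+/+ replicate 5 is the brightest column for 7 of the 8 genes and holds the only Lhb read, while Cga, Tshb and Chga are bright together in libraries where Pou1f1 is dark.

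Pou1f1, the factor shared by the lactotroph, somatotroph and thyrotroph lineages, was rare. It was highest in Notch3+/+ replicate 5, at 6.94 CPM (206 reads), and next in WT replicates 5 and 6, at 0.463 CPM (13 reads) and 22 reads. The other 29 libraries held between 0 and 4 reads, and 11 of them had none, which allows up to 3 reads or between 0.0655 and 0.148 CPM of the library total. These 3 libraries were also the 3 highest in Prl.

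Prl was the gene with the widest range. In Notch3+/+ arteries the lowest level was 0, the median 2.17 and the highest 5770 CPM. In Notch3-/- arteries these were 0, 1.15 and 11.6 CPM, in TgNotch3R169C arteries 0, 0.288 and 2.70 CPM, and in WT arteries 0, 2.43 and 468 CPM. The high end came from single mice: Notch3+/+ replicate 5 held 171305 Prl reads and the next Notch3+/+ library 841, and WT replicates 6 and 5 held 22533 and 12514. No TgNotch3R169C library held more than 82 Prl reads, yet its range lay inside that of the WT libraries. Notch3+/+ replicate 5 alone accounted for 85.4% of the Prl CPM summed over 32 libraries.

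Gh followed Prl in most libraries. Its lowest, median and highest levels were 0, 0.596 and 1195 CPM in Notch3+/+, 0, 0.931 and 53.6 CPM in Notch3-/-, 0, 0.0311 and 6.12 CPM in TgNotch3R169C and 0.0378, 1.33 and 220 CPM in WT arteries. The 4 groups overlapped, and Notch3+/+ replicate 5 held 73.0% of the summed CPM. Of the 8 libraries highest in Prl, 6 were also among the 8 highest in Gh. Across the 32 libraries, Pearson's r of log2(CPM + 0.1) between both genes was 0.87 and Spearman's rho 0.77, a description of libraries that share a dissection.

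The balance between Prl and Gh differed between libraries. It was read as the share of Gh in the reads of both genes per kilobase of exon (1.408 kb for Prl, 0.862 kb for Gh), in the 20 libraries with at least 20 reads of both together. That minimum was chosen after the values were seen. Gh made up more than 50% in 10 libraries, from 51.2% to 100%, and 8 of these 10 had Xist below 10 CPM. Prl made up more than 50% in the other 10, where the share of Gh ran from 0 to 44.7%, and 9 of these had Xist above 1000 CPM. Notch3-/- replicate 2, with 329 Prl and 1948 Gh reads, was at 90.6% Gh and had 2.04 CPM of Xist. Notch3+/+ replicate 5 was at 25.3% Gh and had 1580 CPM of Xist, and WT replicates 5 and 6 were at 44.7% and 22.2% with 1414 and 1824 CPM. The exceptions were WT replicate 2, with Prl ahead (43.1% Gh) and 0.822 CPM of Xist, and Notch3+/+ replicate 6 and Notch3-/- replicate 7, with Gh ahead (51.2% and 56.6%) and Xist at 1530 and 1670 CPM. The part of sex in this balance was not tested.

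**Figure D2:**
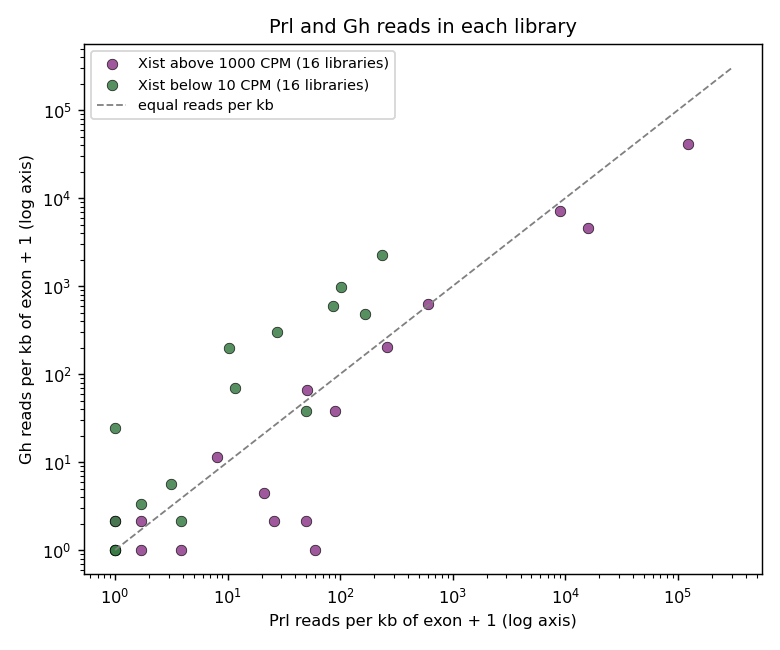
Prl (x axis) and Gh (y axis) reads per kilobase of exon, plus 1, on log axes, 1 point per library, coloured by Xist level; the dashed line marks equal values. Of the 20 libraries with at least 20 reads of both genes together, 8 of the 10 with Gh ahead have Xist below 10 CPM and 9 of the 10 with Prl ahead have Xist above 1000 CPM.

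Pomc was detected in every library. Its lowest, median and highest levels were 1.49, 2.47 and 1415 CPM in Notch3+/+, 1.48, 5.23 and 130 CPM in Notch3-/-, 1.61, 3.96 and 46.6 CPM in TgNotch3R169C and 1.32, 12.0 and 92.5 CPM in WT arteries, and all groups overlapped. In the 3 libraries highest in Prl there were between 0.0483 and 0.245 Pomc reads per Prl read. Of the other 17 libraries with at least 10 Prl reads, 6 held between 0.269 and 0.863 Pomc reads per Prl read and 11 between 1.32 and 51.6. Notch3-/- replicate 4 held 4727 Pomc reads with 231 Prl, 28 Cga and 0 Pou1f1 reads, or 20.5 Pomc reads per Prl read. In that library Pax7, a factor of intermediate-lobe melanotrophs, stood at 1.98 CPM, the highest value outside Notch3+/+ replicate 5 (5.59 CPM). Tbx19, the corticotroph and melanotroph factor that activates Pomc, was at 0.275 CPM there, below WT replicate 2 and Notch3+/+ replicate 8 (0.375 CPM), and the prohormone convertase gene Pcsk2 was at 18.8 CPM, against a median of 21.7 CPM over the 32 libraries. TgNotch3R169C replicate 6 held 1807 Pomc reads, or 51.6 per Prl read, and it was the library highest in the arcuate neuropeptide gene Agrp (5.88 CPM) and in Cartpt (16.8 CPM). The summed level of the 15 hypothalamic neuropeptide genes was 311 CPM in that library, against a median of 83.5 CPM in its group. In Notch3-/- replicate 4, Agrp was at 0.110 CPM. Pax7, Tbx19, Pcsk2, Agrp and Cartpt were chosen for this comparison after their values were seen, and which cells the Pomc reads came from was not tested.

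Cga, Tshb and Chga formed a second combination. In Notch3+/+ arteries the lowest, median and highest Cga levels were 0.0810, 0.969 and 460 CPM, in Notch3-/- arteries 0.0389, 0.564 and 1.94 CPM, in TgNotch3R169C arteries 0, 10.3 and 65.8 CPM, and in WT arteries 0.114, 2.97 and 79.7 CPM. Tshb ran from 0.0185 to 20.2 CPM with a median of 0.111 CPM in Notch3+/+, from 0 to 0.174 CPM with a median of 0 in Notch3-/-, from 0 to 2.10 CPM with a median of 0.726 CPM in TgNotch3R169C and from 0 to 1.29 CPM with a median of 0.197 CPM in WT arteries. All groups overlapped for both genes. Tshb had no read in 8 libraries, 5 of them Notch3-/-, and a count of 0 there allows between 0.0736 and 0.114 CPM.

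At least 20 Tshb reads were held by 8 libraries: 2 Notch3+/+ (replicates 1 and 5), 4 TgNotch3R169C (replicates 4 to 7), 2 WT (replicates 2 and 8) and 0 Notch3-/-. That cut-off was set after the values were seen, and the next library below it, WT replicate 5, held 15 reads. The same 8 libraries were the 8 highest in Cga and the 8 highest in Chga. Cga lay between 20.1 and 460 CPM in them and between 0 and 8.55 CPM in the other 24, and Chga between 169 and 924 CPM against 7.57 to 44.3 CPM. Across the 32 libraries, r was 0.95 (rho 0.83) between Cga and Tshb and 0.93 (rho 0.71) between Tshb and Chga, and 0.38 (rho 0.22) between Prl and Tshb.

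The 7 of these libraries other than Notch3+/+ replicate 5 carried few Prl and Pou1f1 reads. Together they held 441 Tshb and 9607 Cga reads, but 6 Pou1f1 and 330 Prl reads. They also held 846 Fshb and 3987 Pomc reads, and 1034 Gh reads, 831 of them in Notch3+/+ replicate 1 (24.5 CPM). Thyroid-stimulating hormone and the gonadotropins share Cga, and which cells its reads came from was not tested. WT replicates 5 and 6 together held 27 Tshb, 12 Fshb and 489 Cga reads beside 35 Pou1f1 and 35047 Prl reads. Notch3+/+ replicate 5 held both combinations, with 599 Tshb, 1223 Fshb, 13645 Cga, 206 Pou1f1 and 171305 Prl reads. The proportion of Cga to Tshb was not fixed: there were 10.4 Cga reads per Tshb read in Notch3+/+ replicate 1, between 14.2 and 31.2 in the 4 TgNotch3R169C libraries, 22.8 in Notch3+/+ replicate 5, and 26.4 and 68.9 in WT replicates 2 and 8.

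**Figure D3:**
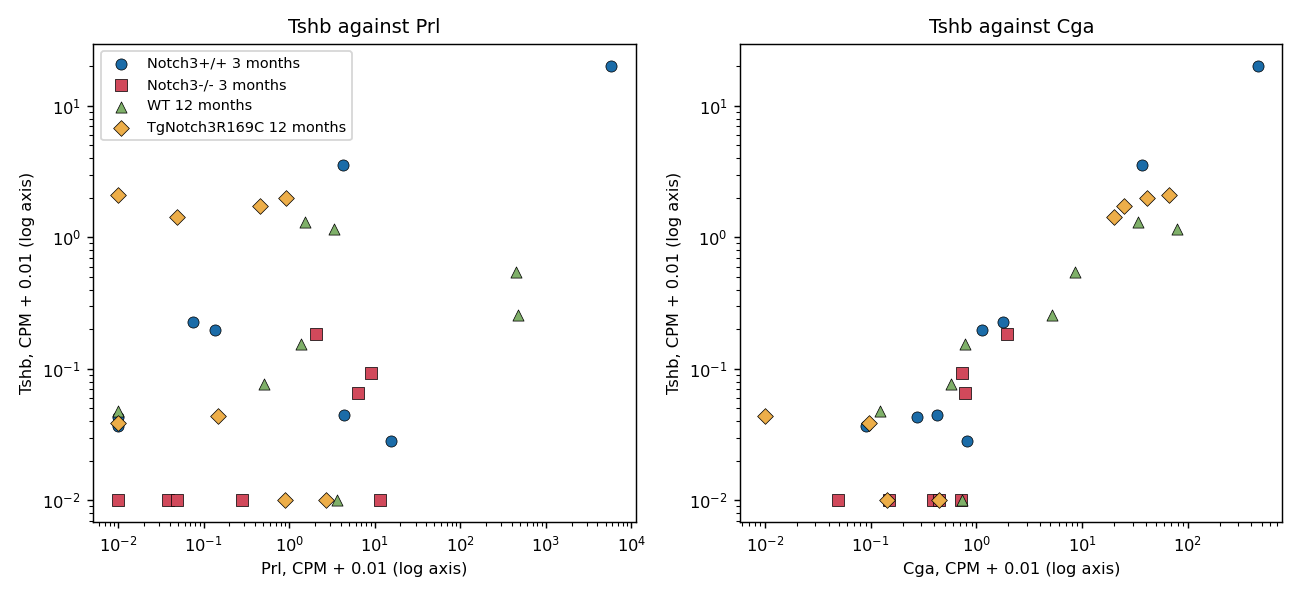
Tshb (y axis) against Prl (left) and Cga (right), as CPM + 0.01 on log axes, 1 point per mouse, with colour and shape giving the group. The 8 libraries with at least 20 Tshb reads are the 8 highest in Cga, though not in the same order, while 7 libraries with at least 20 Tshb reads lie at 4.21 CPM of Prl or less and none of the Notch3-/- points reaches them.

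Chga was present in every library, from a lowest value of 7.57 CPM. Its median and highest levels were 22.2 and 924 CPM in Notch3+/+, 15.6 and 22.7 CPM in Notch3-/-, 106 and 264 CPM in TgNotch3R169C and 24.3 and 213 CPM in WT arteries. Notch3+/+ replicate 5 held 30.8% of its summed CPM, the smallest such share among the genes with more than 1 read. Lhb was counted once in 32 libraries, in Notch3+/+ replicate 5, where its partner gene Fshb stood at 41.2 CPM (1223 reads). In the GRCm38 annotation Lhb, on chromosome 7, overlaps Ruvbl2 on the opposite strand over 138 bases. That is part of the gene, whose exons cover 678 bases. How the counting used strand is not given in the sources used here. Why only 1 Lhb read was counted was not tested, and no level of Lhb was read.

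Some other genes of the gland were highest in the same libraries as Tshb. Of 26 other lineage genes of the anterior pituitary, which shared a median of 4 of their 8 highest libraries with Tshb, 9 shared at least 6 and 5 shared all 8, among them Fshb, Lhx3, Pitx1 and Isl1. None of the 26 shared 6 or more with Prl. Pitx1, for example, lay between 5.28 and 38.9 CPM in the 8 libraries and between 0 and 1.84 CPM in the others, and Fshb between 1.26 and 41.2 CPM against 0 to 0.511 CPM. Among 12 genes of the secretory granules of peptide hormone cells, 5 shared at least 6, and Chgb and Resp18 all 8. Of the 8 neuron markers none shared 6 or more with Tshb, nor did any of the 8 choroid plexus, 8 smooth muscle or 6 endothelial markers. Of 15 hypothalamic neuropeptide genes 3 did, and of 4 pituicyte and posterior lobe genes 2. These genes were read against Tshb after its values had been seen, and the shares carry no test. The most abundant genes of the lineage list, Gata2 (38.02 to 69.1 CPM) and Foxl2 (10.2 to 19.4 CPM), were present in every library, and Nr4a2 ran from 10.5 to 80.6 CPM.

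The 10 genes most like Prl, among 23075 other genes with at least 50 reads, were Impg1, Gm14617, Ghrhr, Myo15, Gnas, Capn8, Vwde, 5330416C01Rik, Bhlha15 and Cryba2, with Pearson's r of log2(CPM + 0.1) from 0.77 down to 0.59 over 32 libraries. Ghrhr, the receptor through which somatotrophs respond to growth hormone-releasing hormone, had r = 0.71, and 0.54 without Notch3+/+ replicate 5. The 10 most like Pomc were Tbx19, Cryba2, AC144792.1, Nr5a1, Gm48893, Oacyl, Six6, Mindy4b-ps, Gm14617 and Ecel1, with r from 0.81 down to 0.70. Tbx19 led with 0.81, and had 0.66 without that library. All 10 genes most like Pomc, and 9 of those most like Prl, were highest in Notch3+/+ replicate 5. Without it, r ran from 0.28 for Cryba2 to 0.70 for Gm14617 in the list of Prl and from 0.43 for Gm14617 to 0.66 for Tbx19 in that of Pomc, and 2 of the 10 genes remained among the 10 most like Prl and 2 among those most like Pomc.

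Between Notch3-/- and Notch3+/+ arteries, 5 of the 8 genes passed the filter on low counts, and Lhb, Tshb and Pou1f1 did not. Of these 5, 0 were called by edgeR's quasi-likelihood test at an adjusted p below 0.05, where 0.649% of 17714 genes were called, 4 had an unadjusted p below 0.05, and DESeq2 called 0. None had groups that did not overlap, as 0.339% of genes did. Since these levels had led to the choice of genes, nothing is read from the counts. The fitted log2 fold changes were -7.63 (SE 2.32) for Prl, -4.08 (SE 1.81) for Gh, -3.15 (SE 1.61) for Pomc, -6.59 (SE 1.71) for Cga and -3.43 (SE 0.94) for Chga. They rested on Notch3+/+ replicate 5: without it they were 0.07, 0.84, 2.73, -3.17 and -1.99, so the first 3 turned positive. DESeq2, which replaces outlying counts, gave -0.40, -0.83, 0.51, -3.03 and -1.86. Only Cga and Chga kept a negative value without that library. Notch3+/+ replicate 1, the other library of that group with at least 20 Tshb reads, was still in that fit. This too is a description of genes chosen on these levels.

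Between TgNotch3R169C and WT arteries the same 5 genes passed and 0 were called (0.113% of 17731 genes were, and 0.124% had groups that did not overlap), 2 had an unadjusted p below 0.05, and DESeq2 called 0. The log2 fold changes were -7.47 (SE 1.78) for Prl and -4.66 (SE 1.56) for Gh. Without WT replicate 6 Prl was at -6.66, and without WT replicate 5 Gh was at -3.18. DESeq2 gave -1.83 and -3.02. The values were -0.84 (SE 0.88) for Pomc, 0.25 (SE 1.27) for Cga and 0.86 (SE 0.80) for Chga, and Cga ran from -0.37 to 1.41 when 1 library was left out. The WT libraries with 22533 and 12514 Prl reads fall on one side of this comparison, and libraries with at least 20 Tshb reads on both, 4 TgNotch3R169C and 2 WT.

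Between WT arteries at 12 months and Notch3+/+ arteries at 3 months, which also differ in line, 5 genes passed and 0 were called (7.92% of 17643 genes were, and 1.29% had groups that did not overlap), 0 had an unadjusted p below 0.05, and DESeq2 called 0. The log2 fold changes of Prl, Gh, Pomc, Cga and Chga lay between -3.14 for Pomc and -1.36 for Chga. Without Notch3+/+ replicate 5 all 5 were positive, from 0.07 for Chga to 4.99 for Prl. This comparison shares its Notch3+/+ libraries with the first one. For the difference between the TgNotch3R169C and the Notch3-/- changes, 6 of 8 genes passed and 0 were called by edgeR (0.35% of 18555 genes were), 3 had an unadjusted p below 0.05, and DESeq2 called 3, Cga, Tshb and Chga (0.753% of the 20324 genes with an adjusted p in DESeq2 were). Their differences were 6.85 (SE 2.16), 7.16 (SE 1.92) and 4.29 (SE 1.27) on the log2 scale in edgeR. Without Notch3+/+ replicate 5 they were 3.41 (SE 1.83), 4.77 (SE 1.68) and 2.85 (SE 1.11).

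**Figure D4:**
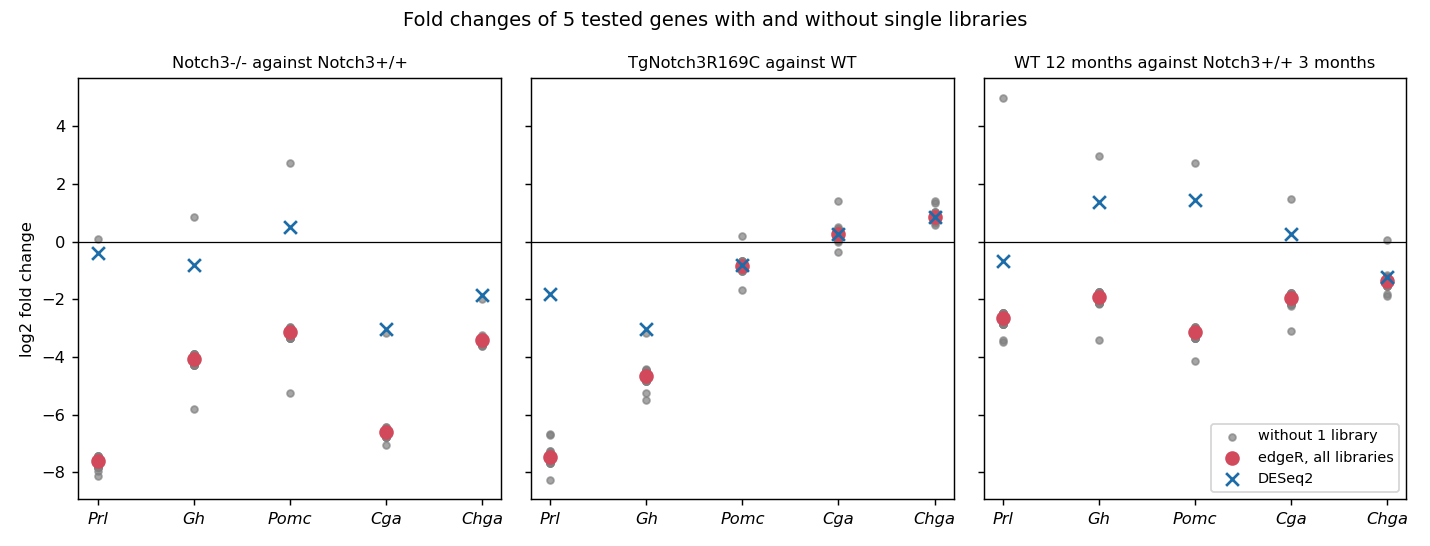
Log2 fold change (y axis) of the 5 genes that passed the filter in 3 comparisons: all libraries with edgeR (red), with 1 library left out (grey) and with DESeq2 (blue crosses). For Prl, Gh and Pomc in the left and right panels a single grey point, the fit without Notch3+/+ replicate 5, lies above 0 while the fit to all libraries lies between -7.63 and -1.94.

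The other lineage genes of the gland were tested in the same fits. Over all genes tested by edgeR, an unadjusted p below 0.05 was found for 7.69% in Notch3-/- against Notch3+/+, 7.27% in TgNotch3R169C against WT, 24.2% in WT against Notch3+/+ and 8.62% for the difference between the mutants' changes. DESeq2 called 1.35%, 0.339%, 11.2% and 0.753% of the genes to which it gave an adjusted p. Of the 26, 11 passed the filter in Notch3-/- against Notch3+/+ and 0 were called by edgeR, 2 had an unadjusted p below 0.05, and DESeq2 called 1, Pitx1. The median log2 fold change was -0.28, against -0.0011 over all genes tested. Of 13 tested in TgNotch3R169C against WT, 0 were called, 1 had an unadjusted p below 0.05 and DESeq2 called 0. All 13 had fitted values above 0, with a median of 0.50, from 0.03 for Neurod1 to 1.11 for Insm1. Without the 9 libraries at 0.5 CPM of Tshb or more, 6 of 11 were above 0 and the median was 0.04. As those libraries were picked by their Tshb level, and several genes of this list were highest in them, the lower median is not independent of the choice and carries no further weight. Of 12 tested in WT against Notch3+/+, 0 were called, 1 had an unadjusted p below 0.05 and DESeq2 called 1, Neurod1. For the difference between the mutants' changes 0 of 17 were called, 10 had an unadjusted p below 0.05 and DESeq2 called 1, Pitx1. Nothing particular to the list is read from these counts. Of the 17, 16 were above 0 with a median of 1.33, and without the 9 libraries 6 of 14 were, with a median of -0.22, which rests on the same choice of libraries.

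The secretory granule genes all passed the filter. Pam, the enzyme that amidates peptide hormones, fell in Notch3-/- arteries, from 493 to 406 CPM, by 0.29 on the log2 scale (SE 0.06, edgeR adjusted p = 0.0410). It was called in 2 of 16 fits that left out 1 library, with adjusted p from 0.0127 to 0.0990, and not with no filter on low counts (adjusted p = 0.0815). DESeq2 also called Pam (adjusted p = 0.00272). So did edgeR with another scaling, a robust fit or all 4 groups in 1 fit (adjusted p = 0.0435, 0.0420 and 0.0123). Of the 3 libraries highest in Prl, only Notch3+/+ replicate 5 is in this comparison. The fit without it, 1 of those 16, did not call Pam (-0.25, adjusted p = 0.0990). Of the 9, only Notch3+/+ replicates 1 and 5 are in it, and Pam was not called without them (-0.25, adjusted p = 0.164). Cpe, carboxypeptidase E, which trims prohormones, fell by 0.24 in WT against Notch3+/+ arteries (SE 0.06, adjusted p = 0.0174). Cpe was called in 16 of 16 fits that left out 1 library, and not without the 3 libraries (-0.22, adjusted p = 0.0848) nor without those of the 9 in this comparison (-0.20, adjusted p = 0.149). In TgNotch3R169C against WT arteries 0 of 12 were called by edgeR or DESeq2 and 2 had an unadjusted p below 0.05. All 12 values lay above 0, with a median of 0.42, and without the 9 libraries, picked by Tshb, 3 of 12 did, with a median of -0.13. Of the 12, 5 had shared at least 6 of their 8 highest libraries with Tshb, so this fall too is not independent of the choice. Its source in the other genes was not tested, and nothing is read from it. Cpe (777 to 1193 CPM), Pam (352 to 560 CPM) and Vamp2 (242 to 333 CPM), the most abundant genes of the list, were present in every library.

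Markers of other brain regions moved over the same libraries to different degrees. The summed level of the 8 choroid plexus markers ran from 571 to 1042 CPM in Notch3+/+, from 472 to 38994 CPM in Notch3-/-, from 568 to 21237 CPM in TgNotch3R169C and from 652 to 38356 CPM in WT arteries. Ttr was at 12616 and 11938 CPM in WT replicates 5 and 6 and at 318 CPM in Notch3+/+ replicate 5. The 8 neuron markers summed to between 185 and 1026 CPM. The 15 hypothalamic neuropeptide genes, led by Avp (1.40 to 118 CPM), Npy and Oxt, summed to between 16.2 and 311 CPM. Of them, 0 were called by edgeR in any of the 4 tests, and 3 of 11, 6 of 12, 2 of 12 and 4 of 12 had an unadjusted p below 0.05, beside the shares of all genes given above. DESeq2 called 0 of them in the 3 comparisons of 2 groups and 2 for the difference between the mutants' changes: Gal (3.59 on the log2 scale, adjusted p = 0.00752) and Tac2 (3.10, adjusted p = 0.0458), named after their values were seen. The pineal gene Tph1 was highest in Notch3-/- replicate 2 (17.7 CPM) and next in TgNotch3R169C replicate 7 (10.2 CPM). Crx and Asmt were highest in the same libraries. Otx2, the most abundant gene of the pineal list, was highest in Notch3-/- replicate 8 (125 CPM) and stood at 3.36 CPM in Notch3-/- replicate 2. Epcam, an epithelial gene, was at 51.6 CPM in Notch3+/+ replicate 5 and at 0.0331 CPM in the lowest library, and it shared 7 of its 8 highest libraries with Tshb. The other epithelial genes listed, Cdh1, Krt8 and Krt18, shared 2, 3 and 3, so the list as a whole did not follow Tshb. The part of these tissues in the values of the hormone genes was not tested.

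Receptors for the hormones were measured in the same libraries, and which tissue their reads came from was not tested. Ghr, the growth hormone receptor, ran from 50.9 to 66.3 CPM over the 32 libraries. Prlr, the prolactin receptor, ran from 2.06 to 373 CPM, and it rose in WT against Notch3+/+ arteries, from 7.02 to 83.4 CPM, by 3.58 on the log2 scale (SE 0.86, edgeR adjusted p = 0.0182). Prlr was called in 16 of 16 fits that left out 1 library, and not with all 4 groups in 1 fit (3.58, adjusted p = 0.0740), without the 3 libraries highest in Prl (3.22, adjusted p = 0.0915) or without the 9 (3.83, adjusted p = 0.0680). The choroid plexus gene Ttr rose in the same comparison by 6.54 (SE 1.37, adjusted p = 0.00959), and the library highest in Prlr, Notch3-/- replicate 8, was the one highest in summed choroid plexus markers. Of the other 8 receptors 0 were called by edgeR in any comparison, and of all 9 receptors 4, 0, 2 and 3 had an unadjusted p below 0.05 in the 4 tests. The 8 libraries highest in Tshr, the receptor of thyroid-stimulating hormone, were the same 8 as for Tshb. Mc5r, a melanocortin receptor, lay between 4.70 and 14.3 CPM.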

How the data were processed

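RNA from brain arteries of 32 mice was sequenced with a stranded poly(A) kit, 1 library per mouse and 8 per group. The authors deposited a table of read counts per gene, in whole numbers and not normalized. The submitters' processing notes name bcl2fastq 2.20.0.422, cutadapt 1.10, Bowtie2 2.2.8, STAR 2.5.3a and HTSeq 0.6.1p1 and the mouse build mm39. Settings are not given in the sources used here.

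Levels are CPM with TMM factors over all 32 libraries. Groups were taken from the labels and compared with edgeR 4.0.16 (R 4.3.3) by its quasi-likelihood test after filterByExpr, with Benjamini-Hochberg adjustment over all genes tested and calls below 0.05. DESeq2 1.42.0 was the other tool. The difference between the mutants' changes was an interaction contrast over all 4 groups. Replicates differed by more than sampling noise in every group, so none was counted as a duplicate. On simulated counts with 200 genes changed by 0.5 or 1 on the log2 scale, edgeR recovered 68% and 75% of them, by size, for Notch3-/- against Notch3+/+ (17714 genes), 48% and 80% for TgNotch3R169C against WT (17731), 49% and 86% for WT against Notch3+/+ (17643) and 41% and 67% for the difference (18555). In the same order, 2.72%, 3.76%, 3.57% and 5.26% of the calls of edgeR there were false. For DESeq2 these shares were 15.1%, 17.7%, 15.7% and 12.2%, a limit on the genes called by DESeq2 alone. On simulated counts DESeq2 was run on the same number of genes as edgeR, while on the data it was given all genes with a read. Changes above 1 were not simulated either. The shares therefore do not give the false share of its calls on the data. Exon lengths and overlaps are from the GENCODE annotation of GRCm38, and upstream sequences from RefSeq on GRCm38.p6, which held 7 of the 8 genes. Coordinates of mm39 were not used.

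The genes described, the 14 gene lists and the cut-offs were chosen with earlier results of these data known. Named are the 8 genes, from each list the 3 genes of highest mean CPM and any gene called, the 10 genes most like Prl and Pomc, Notch3 and Xist. Other named genes were chosen after their values were seen, and some genes are not reported here. Alternatives were other scaling, no filter on low counts, a robust fit, all 4 groups in 1 fit, replicate numbers as a block, other correlation settings, and each library left out in turn. P-values measure the spread between mice of a group.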

Additional observations from a re-analysis of the deposited data

Results flagged for a closer look

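In a group of 8, a library is named here when its distance to the nearest of the others, divided by the range of the group, is above Dixon's 95% critical value. This held for 16 of 29 combinations of gene and group. Chance gives about 1 in 20 for independent, evenly spread values, but these genes were chosen on these levels, move together and are strongly skewed, so the number is a description and is not read against that rate. Notch3+/+ replicate 5 was the high library for all 8 genes, with ratios of 0.997 for Prl, 0.980 for Gh, 0.996 for Pomc, 0.920 for Cga, 1 for Lhb (1 read), 0.825 for Tshb, 0.983 for Pou1f1 and 0.654 for Chga. Its Prl level was 5770 CPM and the next in its group 15.5 CPM.

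Among the Notch3-/- libraries, replicate 2 stood apart for Gh (0.789, at 53.6 CPM against 11.3 CPM in the next), replicate 4 for Pomc (0.951, 130 against 7.82 CPM) and replicate 7 for Cga (0.615, 1.94 against 0.771 CPM). Among the WT libraries, replicate 5 stood apart for Gh (0.629, 220 against 81.7 CPM) and for Pomc (0.767, 92.5 against 22.6 CPM), and replicate 8 for Cga (0.574, 79.7 against 34.02 CPM). Among the TgNotch3R169C libraries, replicate 8 stood apart for Prl (0.665, 2.70 against 0.902 CPM) and replicate 6 for Pomc (0.649, 46.6 against 17.4 CPM).

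The change of Pam, a granule enzyme, differed between the mutants: the TgNotch3R169C change was higher than the Notch3-/- change by 0.40 on the log2 scale (SE 0.09, interaction test in edgeR, adjusted p = 0.0282). It was called in 22 of 32 fits that left out 1 library, and not with no filter on low counts (adjusted p = 0.0715). DESeq2 also called this difference (adjusted p = 0.00529). So did edgeR with another scaling, a robust fit or the replicate number as a block (adjusted p = 0.0328, 0.0291 and 0.033). Without the 3 libraries highest in Prl the difference was 0.36 (adjusted p = 0.138), and without the 9 libraries at 0.5 CPM of Tshb or more it was 0.38 (adjusted p = 0.312). Age and line differ between the mutants and cannot be told apart from genotype here.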

How the results depend on the processing

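DESeq2 was given all genes with a read, without the filter used for edgeR, so tool and filter changed together. It called 282 genes in Notch3-/- against Notch3+/+ (edgeR 115), 75 in TgNotch3R169C against WT (20), 2362 in WT against Notch3+/+ (1398) and 153 for the difference between the mutants' changes (65). Of these, 267, 70, 2158 and 150 were among the genes that edgeR tested. Among the other lineage genes DESeq2 called 1 each, Pitx1 in the first of these and for the difference, and Neurod1 in WT against Notch3+/+. With all 4 groups in 1 fit, 174 genes were called in Notch3-/- against Notch3+/+, among them 1 of the 8 genes, Tshb (-6.10), and 1 lineage gene, Pitx1, and in WT against Notch3+/+ 1 lineage gene, Neurod1. A comparison of 2 groups lost only those of the left-out libraries that were in its own groups. Leaving out the 3 libraries highest in Prl, or the 9 at 0.5 CPM of Tshb or more, was chosen after seeing the data and left fewer samples: 5 and 2 genes in TgNotch3R169C against WT, 535 and 465 in WT against Notch3+/+, and, for the second, 13 for the difference. Among the 5 were Notch3, Adamtsl2, Gm30232 and Dio2, and the 2 were Adamtsl2 and Gm30232, named after their values were seen. All of the 5 and the 2 were also called with every library. Without 1 library each, the counts ran from 78 to 141 in Notch3-/- against Notch3+/+, from 11 to 26 in TgNotch3R169C against WT, from 895 to 1621 in WT against Notch3+/+ and from 53 to 94 for the difference. The counts in TgNotch3R169C against WT were 11 without WT replicate 3 or 4, 13 without WT replicate 7 and 12 without TgNotch3R169C replicate 1, and the lowest in WT against Notch3+/+ without Notch3+/+ replicate 7. Lineage genes called ran from 0 to 1 in WT against Notch3+/+, where Neurod1 was called without WT replicate 5 or Notch3+/+ replicate 3. No direction of a called result reversed.

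Same-numbered libraries deviated together in part: the correlations ran from -0.155 to 0.385, from -0.255 to 0.448 and from -0.179 to 0.302 in the 3 comparisons, with 4, 5 and 3 of 8 above 0.1. The best match had the same number for replicates 2, 3, 4 and 7 in Notch3-/- against Notch3+/+. It did so for replicate 1 in TgNotch3R169C against WT and for replicates 2 and 3 in WT against Notch3+/+. Same-numbered libraries were also alike in Xist, all above 1000 CPM or all below 10 CPM. Number and sex therefore go together here, and the part of sex in these correlations was not tested. No label names pairs of mice, so the numbers were not used to pair them in the main fits. With the replicate number as a block, 97, 6, 715 and 63 genes were called in the 4 tests, and the calls of Pam in Notch3-/- against Notch3+/+ (adjusted p = 0.104) and of Prlr in WT against Notch3+/+ (2.16, adjusted p = 0.215) were not made. Under other scalings the group means of the 8 genes were between 0.982 and 1.02 times those reported. Leaving out Notch3+/+ replicate 5 moved the fold changes of Prl, Gh, Pomc and Cga in both comparisons of 2 groups that used it, and took Chga from -3.43 to -1.99 and from -1.36 to 0.07. In the comparisons of 2 groups Lhb, Pou1f1 and Tshb were removed by the count filter.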
